A study of Homo sapiens with 18 samples.

Results

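DNA replication starts at origins that are licensed in G1 phase and fired in S phase. The origin recognition complex, CDC6 and CDT1 load the MCM2 to MCM7 helicase, geminin (GMNN) blocks further loading, and CDC45 and the GINS complex turn the loaded helicase into an active one. At the fork, primase and DNA polymerases alpha, delta and epsilon copy the strands, PCNA and its loader RFC keep the polymerases on the template, RPA coats single strands, and FEN1 and LIG1 join the Okazaki fragments. Ribonucleotide reductase, thymidylate synthase, thymidine kinase and dUTPase supply the deoxynucleotides. Many of these genes are known targets of the E2F transcription factors, and their mRNAs are used as signs of proliferation in epithelial tumor cells.

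The genes described here are a set of 41 symbols chosen by these roles, with earlier results of these data known. Of these, 40 had a row among the 38055 genes of the whole transcriptome table. UHRF1, which recruits the maintenance methyltransferase to newly copied DNA, was not analysed here. The 40 genes comprised 11 of the pre-replicative complex, 6 of origin firing and helicase activation, 8 of the replicative polymerases, 5 of the sliding clamp and its loader, 5 of flap removal, ligation and single-strand binding, and 5 of deoxynucleotide supply. All 40 passed the filter on low values.

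The cells were wild-type HCT116, a human colorectal carcinoma line with no added agent or transgene, seeded in 6-well plates and given fresh medium daily. Total RNA was taken from whole cells on day 3, at 50% confluency, and on day 5, at 250% confluency, and was depleted of ribosomal RNA. Each day had 3 libraries labelled as biological replicates, and 27470978 to 56689369 reads were counted on genes per library. Time in culture and density rose together and cannot be told apart. Of the 6 epithelial markers, 5 were expressed, with EPCAM between 6932 and 7403 in the 6 libraries, and VIL1 did not exceed 5.2. The summed value of the epithelial markers was 36902.5 to 54942 on day 3 and 100051 to 101108 on day 5, and 4 of the 5 that were tested (CDH1, KRT8, KRT18 and KRT19) were higher on day 5. Of the 9 markers of other cell types, 8 had a row, and PTPRC, CD3E, CD68 and DCN stayed at or below 5.4. The summed value of those 8 markers was 605 to 647 on day 3 and 1279.8 to 1379.5 on day 5, most of it from COL1A1. The part of these differences in the results was not tested.

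Values are the deposited normalized values, in which each library's reads were divided by a single factor. Fold changes are differences in log2(value + 1) between the mean of the 3 day 5 libraries and the mean of the 3 day 3 libraries. They were tested with limma over all 20129 genes that passed the filter, with Benjamini-Hochberg adjustment and a threshold of 0.05. A ± after a fold change is its standard error, and a ± after a value is the SD over 3 libraries.

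On day 5, 25 of the 40 genes were lower, 5 were higher and 10 did not pass the threshold. Over all genes tested, 27.6% were lower and 29.3% were higher (56.9% in either direction). The median log2 fold change of the 40 genes was -0.57, beside 0.011 over all genes tested. The 3 day 5 libraries lay wholly below the 3 day 3 libraries for 26 of the 40 genes, as for 31.7% of all genes, and wholly above them for 7, as for 33.4% of all genes. At least a 2-fold fall was found for 10 genes, as for 7.6% of all genes, and no gene rose 2-fold, as 10.2% of all genes did. With edgeR's quasi-likelihood test on the recovered reads 27 genes were lower and 8 higher, beside 30.0% and 31.0% of all genes. After a correction for the GC content and length of the transcripts 28 genes were lower and none higher, beside 24.9% and 23.7% of all genes. The 5 rises thus rest on the uncorrected values. In RNA from whole cultures, fewer cells that express a gene and less of its RNA per cell cannot be told apart. Together the 40 genes took 0.526% ± 0.023 of the reads on day 3 and 0.435% ± 0.021 on day 5 (n = 3 each).

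In the deposited values the groups differed in how evenly they moved. Over all genes tested, 27.6% were lower and 29.3% higher, and groups of 5 to 11 genes are small beside such shares. All 6 genes of origin firing and all 5 of the clamp and its loader were lower, with median log2 fold changes of -0.84 and -1.21. Of the pre-replicative complex, 5 genes were lower, 2 higher and 4 not past the threshold. Of the polymerases, 4 were lower, 2 higher and 2 not past the threshold. The groups of flap removal, ligation and single-strand binding (3 lower, 1 higher, 1 not) and of deoxynucleotide supply (2 lower, none higher, 3 not) were mixed as well. The genes of origin firing and of the clamp and its loader had transcripts of at most 51.3% and 52.6% GC. Of all genes with transcripts under 55% GC, 35.4% were lower and 20.3% higher. All 5 rises were in transcripts of at least 56.4% GC. After the GC content and length correction no group had a gene that was higher.

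**Figure D1:**
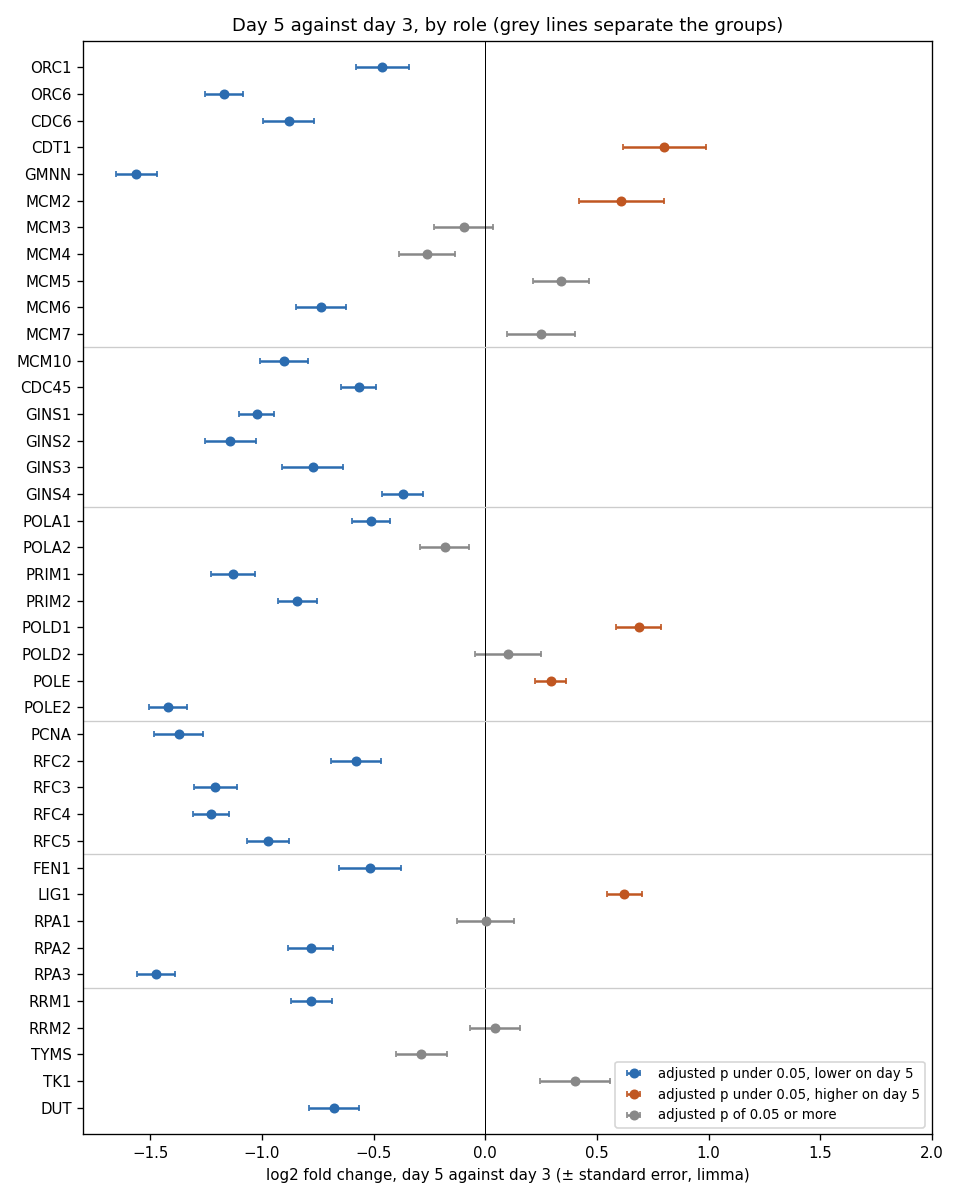
Log2 fold change of the 40 genes on day 5 against day 3, with bars for the standard error from limma over 3 libraries per day and grey lines between the role groups. All 11 genes of the blocks MCM10 to GINS4 and PCNA to RFC5 lie left of 0, while CDT1, MCM2, POLD1, POLE and LIG1 lie right of it and passed the threshold.

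The promoters of genes on both sides of this split held E2F-type sequences. RefSeq windows on GRCh38.p14, from 250 bases before to 50 bases after the annotated start, were at hand for 35 of the 40 genes, 9 of which had more than 1 window. They were searched on both strands for TTTCCCGC, TTTCGCGC, TTTGCCGC and TTTGGCGC, the usual letters of an E2F site. A match was found in 19 of 35 genes (54.3%), against 721 of the 11170 tested genes with a window (6.46%). It was found in 11 of the 22 genes that were lower, in 4 of the 5 that were higher and in 4 of the 8 that did not pass the threshold. Over all genes with a window, it was found in 8.05% of the 3180 lower and 5.28% of the 4014 higher genes. The letters of a match do not show that a factor binds there. One match each follows for 6 of the 11 lower genes that held one and then for the 4 higher genes that did, to set fallers beside risers. The 4 were higher in the deposited values only, and POLE was lower after the GC content and length correction (-0.39 in log2). The 8 matched bases are in capitals, with 11 bases on each side. Each is written 5′ to 3′ on the strand of its gene, so that some matches read as the reverse complement, GCGGGAAA, GCGCGAAA or GCGCCAAA.
GMNN (chr6:24775322-24775351, plus strand): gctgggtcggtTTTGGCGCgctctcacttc
MCM6 (chr2:135876515-135876544, minus strand): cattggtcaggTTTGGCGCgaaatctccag
GINS2 (chr16:85688967-85688996, minus strand): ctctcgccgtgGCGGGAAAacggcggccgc
POLE2 (chr14:49688201-49688230, minus strand): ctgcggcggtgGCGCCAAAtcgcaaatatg
PCNA (chr20:5126663-5126692, minus strand): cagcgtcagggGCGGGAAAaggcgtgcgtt
RFC3 (chr13:33818083-33818112, plus strand): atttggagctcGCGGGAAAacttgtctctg
CDT1 (chr16:88803743-88803772, plus strand): ccagggcgcccGCGGGAAAtttggcgggaa
MCM2 (chr3:127598402-127598431, plus strand): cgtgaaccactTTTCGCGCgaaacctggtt
POLE (chr12:132687342-132687371, minus strand): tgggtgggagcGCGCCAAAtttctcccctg
LIG1 (chr19:48170440-48170469, minus strand): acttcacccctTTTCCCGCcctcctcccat
The match in MCM6 overlaps a second one read on the other strand, as does that in MCM2. In GMNN, whose mRNA fell most, and in CDT1, whose mRNA rose most, the matches began 80 and 35 bases before the RefSeq start. Of the other motifs searched in these windows, also on both strands, CCAAT was found in 21 of 35 (60%) against 43.1% of all, the GC box GGGCGG in 26 (74.3%) against 76.3%, and TTTGAA or TTCGAA, the core of the cell cycle homology region, in 3 (8.57%) against 15.4%. A GC box can share bases with an E2F match, as it does in the PCNA sequence above.

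The licensing factor CDT1 and its inhibitor GMNN moved in opposite directions in the deposited values. GMNN, at chr6:24774931-24786099 (gene span, GENCODE release 44, GRCh38), codes for geminin and had normalized values of 3185, 3282 and 3656 on day 3 and 1127, 1081 and 1216 on day 5. It was thus 2.96-fold lower on day 5, the largest fall of the 40 genes, with no overlap between the days (log2 fold change -1.56 ± 0.092, limma adjusted p = 0.000185). CDT1, at chr16:88803789-88809258, codes for the licensing factor that geminin binds and had values of 1435, 1789.6 and 2386 on day 3 and 3277, 3159 and 3136 on day 5. It was 1.71-fold higher, the largest rise of the 40, again with no overlap, although day 3 replicate 3 lay much nearer to day 5 than replicate 1 did (log2 fold change 0.80 ± 0.19, adjusted p = 0.0121). The log2 ratio of CDT1 to GMNN was -1.15, -0.88 and -0.62 in the day 3 libraries and 1.54, 1.55 and 1.37 in the day 5 libraries. The ratio was below 0 in every day 3 library and above 0 in every day 5 library, a shift of 2.37 between the means. Since each gene already had no overlap in its own direction, the ratio had to separate the days and is given as a description. After the GC content and length correction CDT1 did not pass the threshold (0.16, adjusted p = 0.412), GMNN was at -1.12, and the shift of the ratio was 1.28.

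The origin recognition genes and CDC6 were lower. ORC6, the smallest subunit of the origin recognition complex (chr16:46689643-46698394), had values of 2159, 2146 and 2175 on day 3 and 1019, 982 and 881 on day 5. The day 3 libraries agreed closely and all were more than double the highest day 5 library, a 2.25-fold fall (log2 fold change -1.17 ± 0.084, adjusted p = 0.000235). ORC1, the subunit with cell-cycle regulated turnover, fell less, from 1781 ± 230.3 to 1288 ± 87.6 (adjusted p = 0.0178), and its call was lost when any of 3 libraries was left out (day 3 replicate 2 or day 5 replicates 2 or 3, adjusted p up to 0.0601). CDC6, the ATPase that joins ORC to load the helicase, fell from 5574 ± 638 to 3020.4 ± 223. ORC2 to ORC5, which belong to a list of neighbors in the pathway, were also lower. Their log2 fold changes were -0.38 for ORC2, -1.01 for ORC3, -0.94 for ORC4 and -1.21 for ORC5. All 6 ORC genes were thus past the threshold and lower, as were 27.6% of all genes tested.

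The 6 subunits of the MCM helicase, which form a ring with a single copy of each, did not move together. MCM6 (chr2:135839626-135876443) had values of 8217, 9176 and 10408 on day 3 and 5688, 5162 and 5773 on day 5 and was 1.67-fold lower with no overlap (adjusted p = 0.00227). MCM2 (chr3:127598410-127622436) had values of 3522, 4621 and 5713 on day 3 and 7625, 6228 and 6963 on day 5 and was higher, also with no overlap (log2 fold change 0.61 ± 0.19, adjusted p = 0.0353). The call for MCM2 was lost in 5 of the 6 fits that left out a library, all except the one without day 3 replicate 3, with adjusted p up to 0.101. The log2 ratio of MCM2 to MCM6 went from -1.03 ± 0.18 to 0.32 ± 0.088. These are the subunits with the highest and the lowest fold change, so their ratio had to separate the days. After the correction MCM2 was at 0.12 (adjusted p = 0.566) and MCM6 at -0.63, and the shift of the ratio fell from 1.35 to 0.75. MCM5 had values of 4014, 4535 and 5323 on day 3 and 6237, 5524 and 5696 on day 5, all of them higher on day 5, but did not pass the threshold (log2 fold change 0.34, adjusted p = 0.0592). MCM3, MCM4 and MCM7 overlapped between the days, with log2 fold changes of -0.10, -0.26 and 0.25 and adjusted p of 0.563, 0.125 and 0.207. Summed over the 6 subunits, the share of reads was 0.137% ± 0.012 on day 3 and 0.142% ± 0.0093 on day 5.

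Per length, MCM7 had the highest level of the 6 on both days, at 117 ± 14.3 RPKM on day 3 and 145 ± 7.60 RPKM on day 5. RPKM here is reads per kilobase of the Ensembl canonical transcript and scaled to the reads on genes of each library, with no correction for GC content. The lowest on day 3 were MCM5 (37.0 ± 2.72) and MCM2 (37.1 ± 6.38), which did not differ beyond their spread. On day 5 the lowest was MCM6 (43.0 ± 2.26), with MCM5 (49.1 ± 3.39) next. The ratio of the highest to the lowest subunit was 3.15 on day 3 and 3.36 on day 5 (3.10 to 3.40 and 3.28 to 3.41 in the single libraries), so the subunits changed places within a range of similar width. Among the GINS subunits this ratio went from 3.55 to 2.42, and among the genes of DNA polymerase alpha and primase from 6.24 to 3.22.

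**Figure D2:**
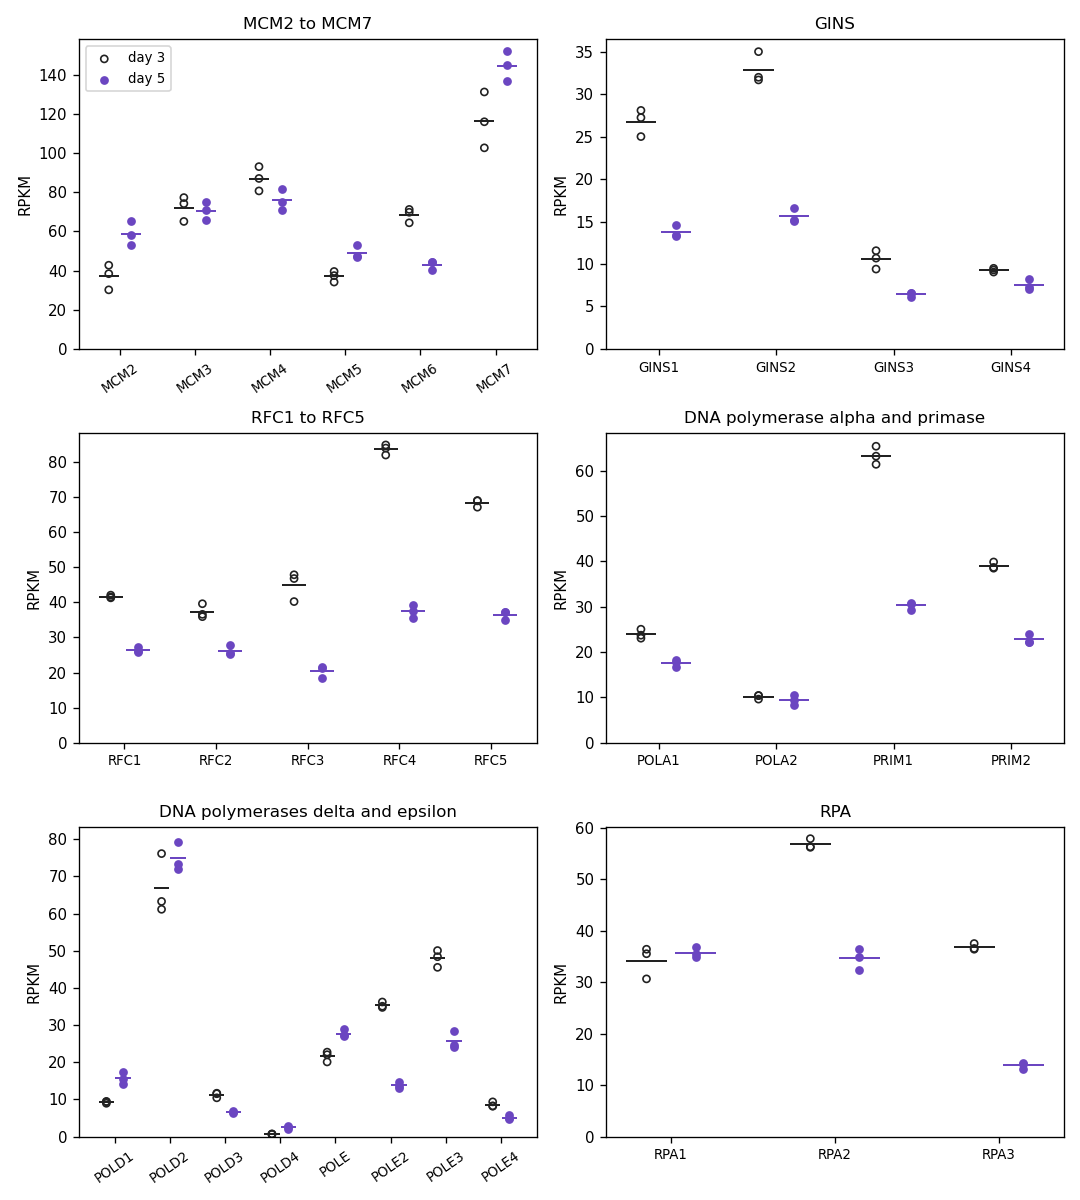
Level of each subunit per length (RPKM) in each library of day 3 (open circles) and day 5 (filled circles), with a bar at the mean of 3 libraries, in panels for 6 complexes and including RFC1, POLD3, POLD4, POLE3 and POLE4 from the pathway neighbors. In these uncorrected levels the subunits of GINS and RFC fell together, whereas MCM2 rose past MCM6. RPA3 fell from 36.8 ± 0.598 to 13.9 ± 0.550 RPKM while RPA1 overlapped between the days. After the GC content and length correction MCM2 did not pass the threshold (log2 fold change 0.12, limma adjusted p = 0.566).

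All genes of helicase activation were lower. GINS2 (chr16:85676198-85690073), a subunit of the GINS ring that joins the helicase to polymerase epsilon, had values of 2831, 2946 and 3582 on day 3 and 1484, 1346 and 1389.6 on day 5. This was a 2.22-fold fall with no overlap (log2 fold change -1.14 ± 0.11, adjusted p = 0.000516). GINS1 (chr20:25391008-25452700) had values of 3067, 3258 and 3224 on day 3 and 1652, 1506 and 1538 on day 5, a 2.03-fold fall (adjusted p = 0.000263). The libraries of each day lay close together, well apart from those of the other day. GINS3 and GINS4 fell by less, with log2 fold changes of -0.77 ± 0.14 and -0.37 ± 0.091, and the call for GINS4 was lost without day 5 replicate 2 (adjusted p = 0.0584). MCM10, which is needed to activate the loaded helicase, had a log2 fold change of -0.90 ± 0.11, and CDC45, the partner of MCM and GINS in the active helicase, one of -0.57 ± 0.080. The smallest fall of the 6, in GINS4, still had no overlap between the days.

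The polymerase genes moved both ways in the deposited values. POLE2 (chr14:49643555-49688422), the second subunit of polymerase epsilon, had values of 2083, 2079.5 and 2289 on day 3 and 845, 756 and 808 on day 5 and was 2.68-fold lower (log2 fold change -1.42 ± 0.085, adjusted p = 0.000189). POLE (chr12:132623753-132687376), the catalytic subunit of the same enzyme, had values of 6047, 6041 and 6121 on day 3 and 7702, 7244 and 7364 on day 5 and was 1.23-fold higher (log2 fold change 0.29 ± 0.070, adjusted p = 0.0136). Neither gene overlapped between the days. The call for POLE was lost without day 3 replicate 2 or without day 5 replicate 1, with adjusted p up to 0.0554. The log2 ratio of POLE to POLE2 was 1.54, 1.54 and 1.42 on day 3 and 3.19, 3.26 and 3.19 on day 5, a shift of 1.71. With the genes apart in opposite directions, their ratio had to separate the days. After the correction both subunits were lower, POLE at -0.39 and POLE2 at -0.95, and the shift was 0.56. POLE3 and POLE4, the small histone-fold subunits, were lower with log2 fold changes of -0.97 and -0.81.

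POLD1 (chr19:50384204-50418018), the catalytic subunit of polymerase delta and the main lagging strand enzyme, had values of 1098, 1139.9 and 1201 on day 3 and 2037, 1657 and 1859.7 on day 5. It was 1.62-fold higher with no overlap (log2 fold change 0.69 ± 0.10, adjusted p = 0.00201), but stood at -0.0435 after the correction (adjusted p = 0.700). POLD2, its second subunit, overlapped between the days (0.10 ± 0.15 in log2, limma adjusted p = 0.587). POLD3, a subunit that binds PCNA, was lower (-0.82 in log2). POLD4, the smallest subunit, was at 36.9, 44.5 and 42.5 on day 3 and 119, 166 and 153 on day 5, so that its rise (1.79 in log2) was between low values. In the primase and polymerase alpha complex, which makes the RNA-DNA primers, PRIM1 (chr12:56730438-56752374) had values of 3057, 3060.5 and 3622 on day 3 and 1482, 1422 and 1532 on day 5 and was 2.19-fold lower (adjusted p = 0.000349). PRIM2, the large primase subunit, had a log2 fold change of -0.84 ± 0.088. Part of PRIM2 has near-identical copies elsewhere in the genome, and how reads that fit both were counted is not given in the sources used here. POLA1, the polymerase itself, was lower (-0.51 ± 0.086), and POLA2 overlapped between the days (-0.18 ± 0.11, adjusted p = 0.208).

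The clamp and its loader fell throughout. PCNA (chr20:5114953-5126626), the sliding clamp, had values of 12599.9, 13118 and 15626 on day 3 and 5552, 4966 and 5387 on day 5. The lowest day 3 library was more than double the highest day 5 library, and the mean was 2.60-fold lower (log2 fold change -1.37 ± 0.11, adjusted p = 0.000294). Per length PCNA was the most abundant of the 40 on day 3, at 299 ± 13.1 RPKM, and was at 121 ± 6.70 RPKM on day 5, when MCM7, TYMS, RRM2 and TK1 had means above it. RFC4 (chr3:186789880-186807058), a small subunit of the clamp loader, had values of 3935, 4012 and 4353 on day 3 and 1826, 1736 and 1688 on day 5, a 2.34-fold fall (adjusted p = 0.000217). RFC3 and RFC5 had log2 fold changes of -1.21 ± 0.095 and -0.97 ± 0.093, and RFC2 one of -0.58 ± 0.11. The large subunit RFC1 was lower too (-0.72 in log2). Together the 5 genes took 0.0806% ± 0.001 of the reads on day 3 and 0.0373% ± 0.0018 on day 5.

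**Figure D3:**
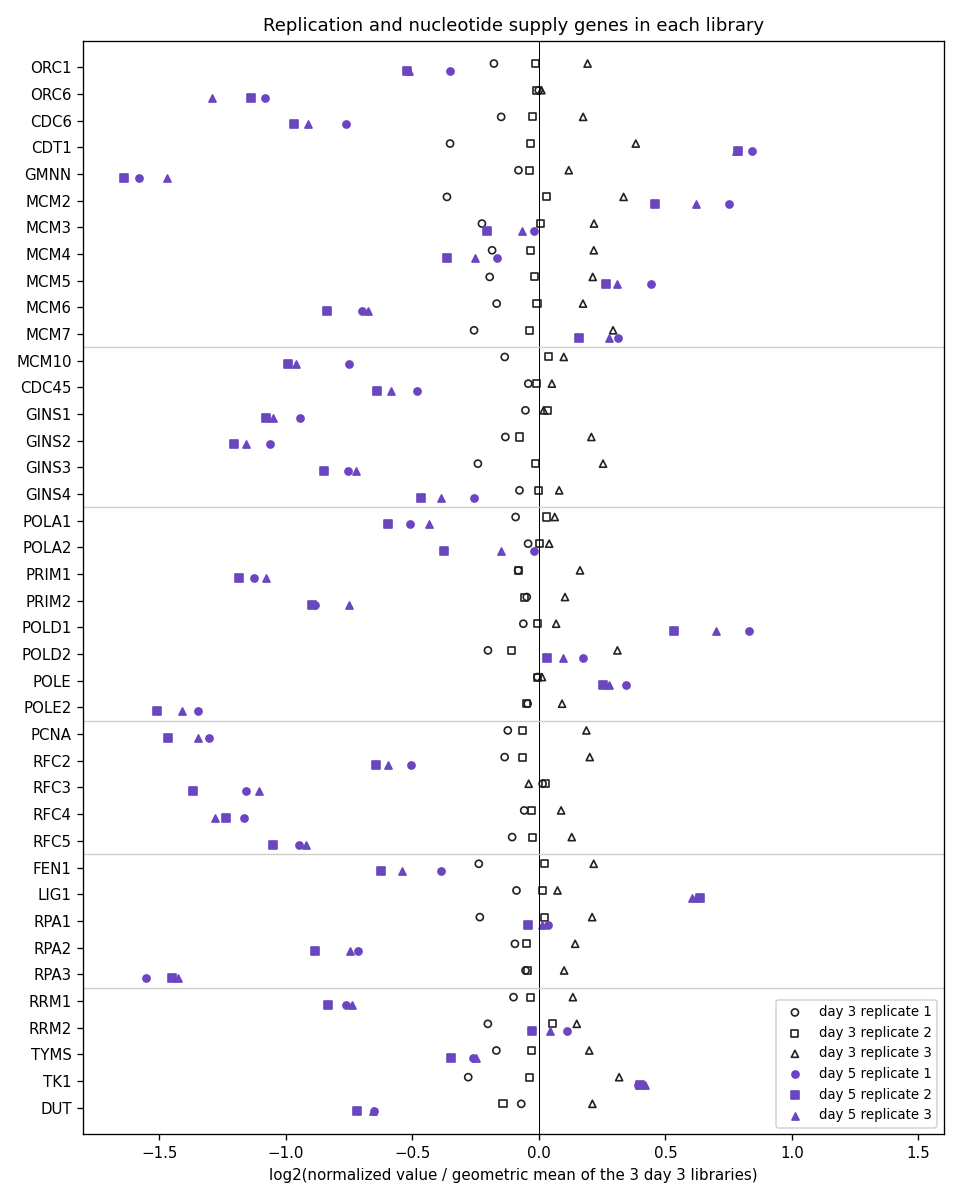
Value of each of the 40 genes in each library, as the log2 ratio to the geometric mean of the 3 day 3 libraries (open symbols day 3, filled symbols day 5, shapes for replicates 1 to 3). Day 3 replicate 3 was the highest and replicate 1 the lowest day 3 library for most genes. The filled symbols lie apart from the open ones for 33 of 40 genes. They lie wholly below for 26 and wholly above for 7, beside 31.7% and 33.4% of all genes tested.

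The subunits of the RPA heterotrimer did not move together. RPA3 (chr7:7636518-7718607), the smallest subunit, had values of 2575, 2586 and 2862 on day 3 and 909.9, 978 and 995 on day 5 and was 2.78-fold lower with no overlap (log2 fold change -1.48 ± 0.085, adjusted p = 0.000179). RPA2 (chr1:27891524-27914746), the subunit phosphorylated under replication stress, had values of 3026, 3124 and 3568 on day 3 and 1968, 1748 and 1924 on day 5 and was 1.72-fold lower (adjusted p = 0.00112). RPA1, the large DNA-binding subunit, had values of 5048, 6031 and 6867 on day 3 and 6083, 5766 and 5979 on day 5, which overlapped (log2 fold change 0.0015 ± 0.13, adjusted p = 0.993). Per length the 3 subunits stood at 34.2 ± 3.10, 56.8 ± 0.940 and 36.8 ± 0.598 RPKM (RPA1, RPA2, RPA3) on day 3, where RPA1 and RPA3 did not differ beyond their spread. On day 5 they stood at 35.7 ± 0.993, 34.6 ± 2.04 and 13.9 ± 0.550 RPKM, where RPA1 and RPA2 did not.

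LIG1 and FEN1 moved in opposite directions in the deposited values. LIG1 (chr19:48115445-48170603), which seals Okazaki fragments, had values of 1908, 2049.8 and 2135 on day 3 and 3141, 3151 and 3083 on day 5. It was 1.54-fold higher, with the 3 day 5 libraries close together and no overlap (log2 fold change 0.62 ± 0.078, adjusted p = 0.00106). FEN1, the nuclease that cuts the flaps, fell from 3485 ± 543 to 2422 ± 206 (log2 fold change -0.52 ± 0.14, adjusted p = 0.0207). The call for FEN1 was lost without day 3 replicate 2, day 5 replicate 2 or day 5 replicate 3 (adjusted p up to 0.0679). The log2 ratio of LIG1 to FEN1 was -0.77 ± 0.15 on day 3 and 0.37 ± 0.12 on day 5, a shift of 1.14. Neither gene overlapped between the days, so their ratio had to separate them. After the correction LIG1 was at 0.0344 (adjusted p = 0.680) and FEN1 at -0.55 (adjusted p = 0.0149), and the shift was 0.58.

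Among the genes of deoxynucleotide supply the subunits of ribonucleotide reductase, which turns ribonucleotides into deoxyribonucleotides, differed. RRM1 (chr11:4094707-4138932), the large subunit, had values of 8585, 8989 and 10100.3 on day 3 and 5430.1, 5161 and 5512 on day 5 and was 1.72-fold lower (log2 fold change -0.78 ± 0.091, adjusted p = 0.000845). RRM2 (chr2:10120698-10211725), the S-phase small subunit, had values of 12048, 14365 and 15369.5 on day 3 and 14955, 13615 and 14275 on day 5, which overlapped (log2 fold change 0.04 ± 0.11, adjusted p = 0.766). The log2 ratio of RRM2 to RRM1 was 0.59 ± 0.095 on day 3 and 1.41 ± 0.046 on day 5, a shift of 0.82, and of 0.83 after the correction. DUT (chr15:48331011-48343373), which removes dUTP and makes the precursor of thymidylate, had values of 2456, 2336 and 2984 on day 3 and 1639, 1566 and 1634 on day 5, a 1.61-fold fall (adjusted p = 0.00311).

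The thymidylate genes did not pass the threshold. TYMS, thymidylate synthase of the de novo path, had values of 7846, 8629 and 10119 on day 3 and 7354, 6924 and 7417 on day 5, which did not overlap (log2 fold change -0.29 ± 0.11, adjusted p = 0.0732). TK1 (chr17:78174091-78187233), thymidine kinase of the salvage path, had values of 3782, 4471 and 5719 on day 3 and 6014, 6051 and 6146 on day 5, which lay just above day 3 replicate 3 (log2 fold change 0.40 ± 0.16, adjusted p = 0.0701). With edgeR on the recovered reads both passed, TYMS lower (adjusted p = 0.00265) and TK1 higher (adjusted p = 0.00255). Without day 3 replicate 1 TYMS passed in limma as well (adjusted p = 0.0356), as did TK1 without day 3 replicate 3 (adjusted p = 0.00698). Each did not pass in 5 of the 6 fits that left out a library. After the GC content and length correction neither passed (TYMS -0.14, limma adjusted p = 0.313, and TK1 0.078, limma adjusted p = 0.650).

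The fold changes of the 40 genes moved with the GC content of their transcripts. The 25 genes that were lower had canonical transcripts with 38.0% to 52.6% GC, and the 5 that were higher had 56.4% to 64.8%, without overlap. Across the 40 genes the fold change and GC content had a Pearson correlation of 0.84 and a Spearman correlation of 0.77. Across the 19288 tested genes with an annotated transcript they were 0.41 and 0.44. These are correlations across genes, which share the 6 libraries. Of the 9 members with at least 55% GC none were lower and 5 were higher, where of all 5366 genes of that class 8.52% were lower and 53.7% higher. Of the 31 members under 55% GC, 25 were lower and none higher, where of 13922 genes 35.4% were lower and 20.3% higher. GC content also moved with the libraries within a day. Over all genes, the deviation from the day mean correlated with GC content at -0.16 (Pearson) in day 3 replicate 1 and at 0.19 in day 3 replicate 3. Over the 40 genes these correlations were -0.47 and 0.45.

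**Figure D4:**
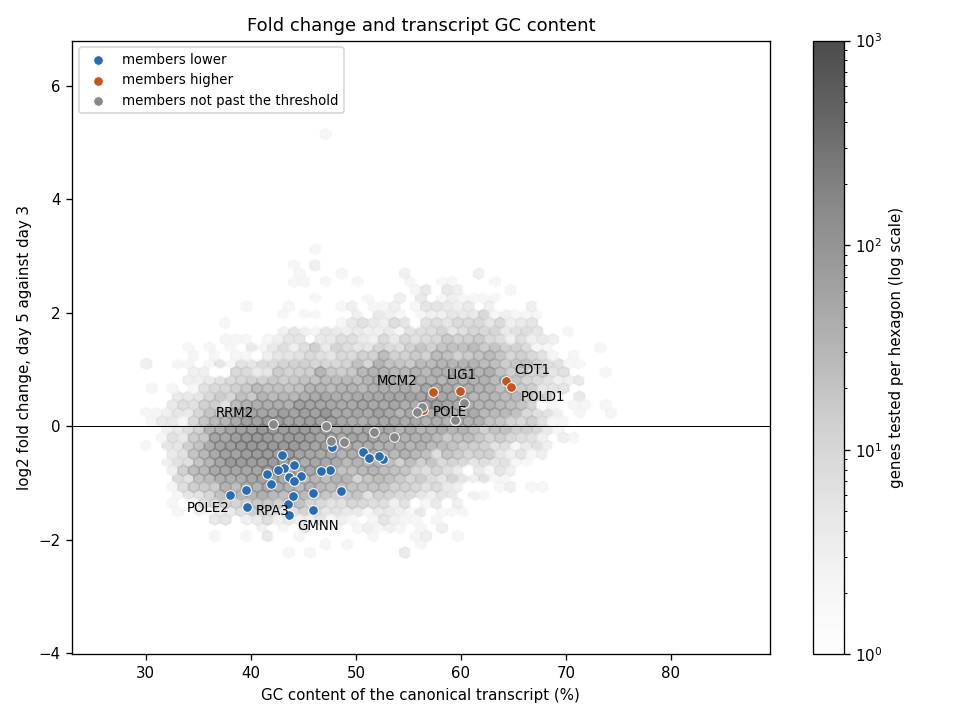
Log2 fold change on day 5 against day 3 (y axis) by GC content of the canonical transcript (x axis), for all 19288 tested genes with a transcript as grey hexagons and for the 40 genes as points colored by their call. The points run from RFC3 (38.0% GC, -1.21) to POLD1 (64.8% GC, 0.69), with Pearson correlations of 0.84 over the 40 genes and 0.41 over all.

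The comparison was therefore repeated after a loess correction of each library for GC content and transcript length, chosen after seeing the data. All 25 lower genes were again lower, MCM4, POLA2 and POLE joined them, and no gene was higher, beside 24.9% lower and 23.7% higher over all genes. CDT1 had a corrected log2 fold change of 0.16 (limma adjusted p = 0.412), MCM2 of 0.12, LIG1 of 0.0344 and POLD1 of -0.0435, none of which passed the threshold. POLE turned from 0.29 to -0.39 (adjusted p = 0.00505). The falls became smaller for most of the genes that had fallen 2-fold, and 3 of those 10 were still 2-fold lower, RPA3 (-1.29), GINS2 (-1.16) and GMNN (-1.12). The others went from -1.42 to -0.95 (POLE2), -1.37 to -0.93 (PCNA), -1.23 to -0.83 (RFC4), -1.21 to -0.81 (RFC3), -1.17 to -0.92 (ORC6), -1.13 to -0.60 (PRIM1) and -1.02 to -0.84 (GINS1), all still past the threshold. The median of the 40 genes was -0.54. The correction removes the trend with GC content and length fitted over all genes, from whatever source. A steeper trend among the 40 genes is not fitted and can remain after it. Which part of the trend arose in the cells and which in the libraries was not tested.

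**Figure D5:**
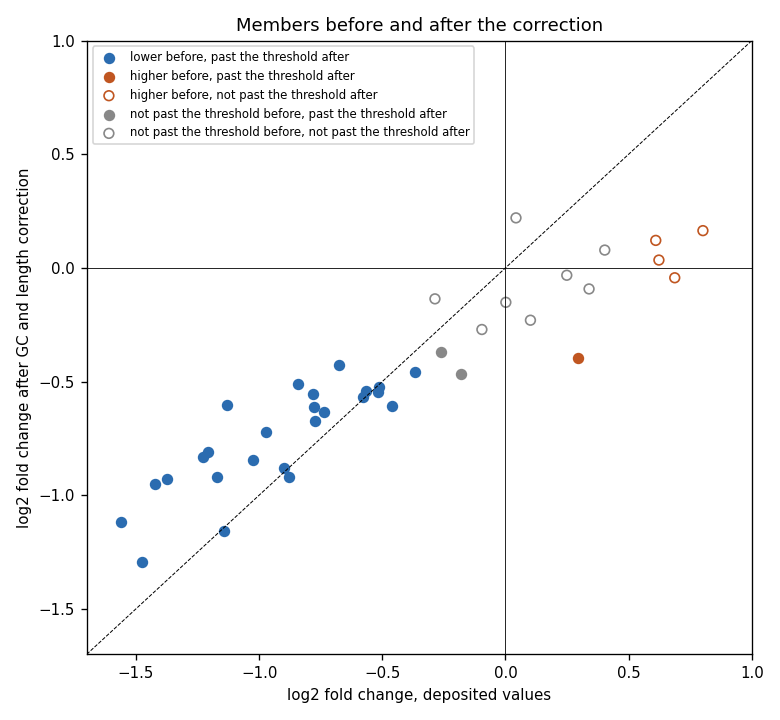
Log2 fold change of the 40 genes from the deposited values (x axis) and after the GC content and length correction (y axis), colored by the first call and filled where the corrected fit passed the threshold. The dashed line marks equal values. The 25 lower genes stay filled below 0, while 4 of the 5 higher genes fall to between -0.0435 and 0.16 without passing and POLE falls to -0.39.

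A further 82 genes of the same pathways, picked by role with earlier results of these data known, were read beside the 40. Of these 45 were lower, 11 higher and 26 not past the threshold, beside 27.6% lower and 29.3% higher over all genes, and their median log2 fold change was -0.39. After the GC content and length correction 51 were lower and 4 higher, beside 24.9% and 23.7% over all genes. Of the 15 other origin genes 11 were lower and 1 higher. ORC5 and DBF4, the activator of the CDC7 kinase that fires origins, had the largest falls (-1.21 and -1.11 in log2), and TICRR, which brings CDC45 to origins, was higher (0.25, adjusted p = 0.0267). The TICRR call was lost in 4 of 6 fits that left out a library, and the value turned to -0.19 after the correction.

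Of the 20 other fork genes 14 were lower and 3 higher, beside 27.6% and 29.3% over all genes. PCLAF, a PCNA-binding protein, and DSCC1, part of the cohesion clamp loader, fell most (-1.33 ± 0.090 and -1.29 ± 0.11 in log2). TOP1, the topoisomerase that relieves supercoils ahead of the fork, went from 7108 ± 786 to 13022 ± 474 (log2 fold change 0.88, adjusted p = 0.000935). Its transcript has 42.1% GC, and it remained higher after the correction (1.03, adjusted p = 0.00107), as did POLD4 (1.51, adjusted p = 0.00122).

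Of the 7 genes of chromatin behind the fork, ASF1A and NASP, which carry histones, were lower (-1.56 and -0.39 in log2). DNMT1, the maintenance methyltransferase, was higher (0.61, adjusted p = 0.00298), but not after the correction (0.13, adjusted p = 0.224). The other four did not pass the threshold. Of the 27 other nucleotide supply genes 14 were lower and 4 higher, beside 27.6% and 29.3% over all genes. ADSL, of purine synthesis, had a log2 fold change of -1.17 and NME1, a nucleoside diphosphate kinase, one of -1.11. NME1 lies beside the similar gene NME2, so reads may be split between them. CAD, which starts pyrimidine synthesis, and IMPDH1, of guanine nucleotide synthesis, were higher (0.76 and 0.57), but stood at 0.0132 and -0.00966 after the correction. The IMPDH1 call was also lost in 4 of the 6 fits that left out a library (adjusted p up to 0.0657).

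The E2F and pocket protein genes, which code for known regulators of many of these genes, moved in both directions. Their binding to these promoters was not measured here. Of 13, 4 were lower, 2 higher and 7 not past the threshold, beside 27.6% lower and 29.3% higher over all genes. RBL1, the pocket protein p107, fell from 2344 ± 20.5 to 1577 ± 5.77 (-0.57 ± 0.067 in log2, adjusted p = 0.000858). RBL2, its relative p130, which is known from resting cells, rose from 1687 ± 27.0 to 2787 ± 116 (0.72 ± 0.073, adjusted p = 0.000538) and was higher after the correction too (0.76). The repressor genes E2F6, E2F7 and E2F8 were lower (-0.46, -0.29 and -0.35), and TFDP2, a dimer partner, was higher (0.21, adjusted p = 0.0454). The calls for E2F7 and TFDP2 were lost in 4 and 5 of the 6 fits that left out a library. E2F1, E2F2, E2F3, E2F4 and E2F5 had log2 fold changes between -0.12 and 0.09, TFDP1 one of -0.20 and RB1 one of 0.24. After the correction 7 were lower and 2 higher, beside 24.9% and 23.7% over all genes. E2F1 (-0.49), E2F2 (-0.73) and E2F4 (-0.36) were newly lower, RB1 (0.40) was newly higher and TFDP2 (-0.14) was no longer past the threshold.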

How the data were processed

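The labels and the study's methods gave the design. The authors trimmed paired-end reads, mapped them with CLC Genomics Workbench to genes and transcripts of ENSEMBL on hg38 (reverse strand only), and normalized them. FastQC 0.11.8 and MultiQC 1.7 were used, per the labels. The deposited values are a signal, normalized by library, for each gene. All values (100%, tolerance 0.01 read) were whole multiples of 1 read, so reads were recovered, 27470978 to 56689369 per library. The authors' own fold changes and p-values in the table were not used, nor were the miRNA tables. Values for day 7 were not analysed here.

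Genes reaching 10 in 3 or more of the 6 libraries (20129) were tested with limma 3.58.1 (R 4.3.3) on log2(value + 1), day only, with Benjamini-Hochberg adjustment. The pseudocount makes fold changes of low genes too small. edgeR 4.0.16 (quasi-likelihood, 6245 genes higher and 6035 lower) and DESeq2 1.42.0 were run on the recovered reads as alternatives, with library totals, median centring, no filter, a pseudocount of 0.1, a replicate block, a 2-fold minimum and each library left out. The GC content and length correction (loess, span 0.3), alone and with the block, and limma trend were chosen after seeing the data. The fits were first tested on simulated counts. Ratios between genes are descriptions. An exact permutation test over libraries gave p = 0.1 for every ratio. That is the smallest value that 3 against 3 libraries can give, so no ratio could pass. Replicates differed by more than sampling noise (chi-square 4.15 to 22.0 per degree of freedom). Transcripts and gene spans came from GENCODE release 44. Whether reads in introns were counted is not given in the sources used here, so RPKM rests on the canonical transcript only.

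The genes and lists were chosen with earlier results of these data known. Named are all members, with library values for the 2 largest falls and rises per role group, and for each neighbor list the 2 largest falls and rises past the threshold without overlap, plus all E2F and pocket protein genes. MCM5, MCM3, TYMS, POLE3, POLE4, POLD3, RFC1 and the ORC genes beyond that rule are named to complete their complexes or pathways, after their values were seen. Python 3.11.15, pandas 2.3.3, numpy 2.4.6, scipy 1.17.1 and matplotlib 3.10.9 were used.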

Additional observations from a re-analysis of the deposited data

How the results depend on the processing

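Of 25 genes lower on day 5, 22 kept that call in each fit that left out 1 library, as did 3 of the 5 higher genes. The number of members lower ranged from 22 to 28, apart from 10 with a 2-fold minimum. The number higher was 5, but 3 with median centring, no filter or the replicate block, 7 with library totals, DESeq2 or limma trend, 3 to 9 without 1 library (9 without day 3 replicate 3), 8 with edgeR, and 0 with a 2-fold minimum or the GC content and length correction, with or without the block. The neighbor genes went from 45 lower to 12 with a 2-fold minimum. Their number higher went from 11 to 6 with median centring, 5 with no filter, 8 with the block, 6 to 14 without 1 library, 15 with DESeq2 or limma trend, 16 with library totals, 17 with edgeR, 4 with the correction, with or without the block, and 1 with a 2-fold minimum. For all genes, day 5 versus day 3, 3589 passed with a 2-fold minimum (1530 lower and 2059 higher). In the other fits the number of all genes lower ranged from 4131 (correction with the block) to 7156 (median centring). The number of all genes higher ranged from 4088 (correction with the block) to 6395 (library totals). The correction tested 19288 genes, no filter 38055 and the rest 20129. Median centring moved the median of all genes to -0.16 and that of the members to -0.74, and the share of higher among all calls from 51.5% to 39.5%. Same-numbered libraries of the days did not deviate together (correlations of -0.011, 0.034 and 0.023), so the numbers were not taken as pairs, and the replicate block left 22 members lower and 3 higher.

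Most reversed values lay near 0. With the correction, with or without the block, the log2 fold changes became -0.093 for MCM5, -0.032 for MCM7, -0.044 for POLD1, -0.23 for POLD2, -0.39 for POLE, -0.15 for RPA1, -0.19 for TICRR, -0.0097 for IMPDH1, -0.49 for E2F1, 0.098 for E2F5 and -0.14 for TFDP2. With median centring they became -0.069 for POLD2, -0.17 for RPA1, -0.13 for RRM2 and -0.077 for E2F1. With library totals they became 0.0013 for E2F3, 0.057 for E2F4 and 0.012 for E2F5. RPA1 was at -0.016 with edgeR and -0.022 with DESeq2. Leaving out 1 library gave RPA1 -0.12 to 0.11, RRM2 -0.058 to 0.12, MCM3 -0.21 to 0.013, E2F1 -0.00015 to 0.17 and E2F4 -0.091 to 0.088. The cause was not tested.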
